A study of Mus musculus with 59 samples.

Results

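The genes described here are 8 genes of insulin and insulin-like growth factor (IGF) signaling: the ligand Igf1, the receptors Igf1r and Insr, the receptor adaptors Irs1 and Irs2, and the binding proteins Igfbp3, Igfbp4 and Igfbp5. They were taken by symbol from a table of 55421 genes and a table of intron reads for 33282 genes, and each of the 8 was found once in both. Irs1 had been chosen because it was higher with both parabens in an earlier analysis of these same tumors, so its levels against vehicle, and those of its 7 companions, are given as descriptions without a test. The tests below concern propylparaben against methylparaben for the 7 companions, the wider pathway, and the way the genes varied from tumor to tumor within a treatment.

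The study sequenced total RNA of 59 primary mammary tumors from PyMT mice: 20 from the methylparaben group, 20 from the propylparaben group and 19 from the vehicle group. All mice had the strain label B6.FVB-Tg(MMTV-PyVT)634Mul/LellJ and the genotype PyMT (+/-), that is, they were hemizygous for the transgene. In it the MMTV promoter, active mainly in mammary epithelium, drives the polyoma virus middle T antigen, so the tumors of the vehicle group carried the oncogene too. Methylparaben and propylparaben are preservatives, esters of 4-hydroxybenzoic acid with a methyl and a propyl group, and the study asked what chronic exposure to low levels of them does to mammary cancer. Doses, length of exposure, age and the animal behind each library are not in the labels used here, and the p-values describe no more than the sample-to-sample spread, which may be technical. Reads on genes ranged from 1166502 to 2032789 per library (median 1594892), and 1 read was worth 0.323 to 0.664 normalized counts.

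Insulin and IGFs bind the tyrosine kinase receptors encoded by Insr and Igf1r. The activated receptors phosphorylate the adaptors IRS1 and IRS2, which recruit PI3 kinase and so start the AKT and mTOR branch, while SHC and GRB2 lead to the RAS and ERK branch. IGF binding proteins hold IGFs outside cells and can limit or prolong their action, and in the mammary gland IGF-I comes largely from stroma and from the circulation and acts on the epithelium. The middle T antigen itself binds SHC and PI3 kinase, so part of this pathway is engaged in PyMT tumors without a growth factor.

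The upstream sequences of the adaptor on which the results turn, of its paralog and of the ligand that varied with it are shown here for reference. They are the 250 bases before the RefSeq start of each gene on GRCm38.p6, on the gene's own strand: Irs1 at chr1:82291440-82291689 (minus strand), Irs2 at chr8:11008930-11009179 (minus strand) and Igf1 at chr10:87860861-87861110 (plus strand). The Igf1 window lies inside the span that the GENCODE M21 annotation gives the gene, which begins at 87858265. So it does not precede the first start of Igf1 in that annotation. Capitals mark matches, on either strand, to the GC box GGGCGG and to the palindromic E-box CACGTG.
Irs1 promoter: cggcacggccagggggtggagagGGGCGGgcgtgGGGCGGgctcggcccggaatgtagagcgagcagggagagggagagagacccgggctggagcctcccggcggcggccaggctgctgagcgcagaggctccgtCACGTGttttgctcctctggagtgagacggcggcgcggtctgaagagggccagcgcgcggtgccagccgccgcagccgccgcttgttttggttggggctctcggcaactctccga
Irs2 promoter: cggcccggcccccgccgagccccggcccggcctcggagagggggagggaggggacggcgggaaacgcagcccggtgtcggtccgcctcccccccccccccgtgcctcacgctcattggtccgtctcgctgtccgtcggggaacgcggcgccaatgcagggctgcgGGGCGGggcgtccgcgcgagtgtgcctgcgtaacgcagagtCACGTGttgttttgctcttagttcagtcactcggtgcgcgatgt
Igf1 promoter: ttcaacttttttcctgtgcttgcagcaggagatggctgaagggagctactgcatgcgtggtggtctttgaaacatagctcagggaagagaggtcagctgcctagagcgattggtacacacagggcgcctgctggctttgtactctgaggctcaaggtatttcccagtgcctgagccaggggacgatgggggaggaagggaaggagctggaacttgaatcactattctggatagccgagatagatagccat
RefSeq promoters were matched for 7 of the 8 genes, all but Insr. Both adaptor promoters held 1 E-box, a motif found in 6.02% of the 32851 mouse promoters of the same length, and no other of the 7 held it. The GC box was found at 2 places before Irs1, 1 before Irs2 and 2 before Igf1r, and in 32.7% of all promoters. The FOXO core TGTTTAC, searched on both strands and present in 3.17% of all promoters, was in none of the 7 windows. The Irs1 and Irs2 windows were 72.4% and 72.8% G and C, and that of Igf1 52.8%, against a median of 52.4% over all promoters. The 3 motifs do not overlap one another, and a match of letters is a description of the sequence and not of binding.

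The 8 genes differed widely in level when normalized counts were divided by exon length in GENCODE M21. Igfbp5 was at 440 normalized counts per kilobase over the 59 tumors, Igfbp4 at 53.6 and Igfbp3 at 28.8. The adaptors Irs2 and Irs1 were at 12.3 and 9.83 per kilobase, Igf1 at 6.95, and the receptors Insr and Igf1r at 1.96 and 1.70. The sources used here do not name the library chemistry, and per-length levels would not be comparable if reads came from transcript ends alone. All 8 genes passed the filter of a mean normalized count of at least 1.

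Igf1, the secreted ligand, lies on chromosome 10 from 87858265 to 87937042 (plus strand, GRCm38). It ranged from 25.1 to 115 normalized counts with a median of 74.1 in methylparaben tumors, from 21.5 to 160 with a median of 70.9 in propylparaben tumors, and from 13.6 to 102 with a median of 59.1 in vehicle tumors. The groups overlapped over most of their range, with 4 methylparaben and 7 propylparaben tumors above the highest vehicle tumor and none below the lowest. On the log2(value + 1) scale the difference from vehicle was 0.57 ± 0.24 with methylparaben and 0.52 ± 0.24 with propylparaben (SE). Its spread was wide in each group, with a coefficient of variation of 37.2% in methylparaben tumors, 54.3% in propylparaben tumors and 47.5% in vehicle tumors.

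Igf1r, the IGF-I receptor gene on chromosome 7 (67952827 to 68233668, plus strand), ranged from 14.3 to 53.2 with a median of 30.5 normalized counts in methylparaben tumors. It ranged from 11.8 to 52.8 with a median of 26.7 in propylparaben tumors and from 2.88 to 45.8 with a median of 25.3 in vehicle tumors. The lowest value, 7 reads in vehicle replicate 8, stood apart from the rest of its group, and the groups overlapped otherwise. The log2 difference from vehicle was 0.37 ± 0.19 with methylparaben and 0.18 ± 0.19 with propylparaben, and without vehicle replicate 8 it was 0.22 and 0.04.

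Insr, the insulin receptor gene on chromosome 8 (3122061 to 3279617, minus strand), ranged from 21.01 to 58.4 with a median of 28.7 normalized counts in methylparaben tumors. In propylparaben tumors it ranged from 17.4 to 36.5 with a median of 29.7, and in vehicle tumors from 14.4 to 38.97 with a median of 23.1. Above the vehicle median lay 17 of 20 methylparaben and 16 of 20 propylparaben tumors. The log2 differences were 0.29 ± 0.10 and 0.25 ± 0.10. The highest Insr value, in methylparaben replicate 5, came from the library with the highest adipocyte score (8.81) and skeletal muscle score (9.32) of its group. A score is the mean log2(value + 1) of a list of marker genes.

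Irs1, the adaptor that carries the signal of both receptors to PI3 kinase, lies on chromosome 1 from 82233101 to 82291416 on the minus strand, with 9.144 kb in 2 exons. It ranged from 68.8 to 158 normalized counts with a median of 103 in methylparaben tumors, from 57.8 to 153 with a median of 101 in propylparaben tumors, and from 29.99 to 146 with a median of 56.97 in vehicle tumors. Each of the 20 methylparaben and 20 propylparaben tumors was above the vehicle median. Yet 1 tumor of each ester (methylparaben replicate 5 and propylparaben replicate 14) exceeded the highest vehicle tumor, vehicle replicate 5, so the groups overlapped above that median. The mean was 103 ± 20.4 in methylparaben tumors, 99.4 ± 25.1 in propylparaben tumors and 65.9 ± 27.5 in vehicle tumors (SD, n = 20, 20 and 19). The log2 difference from vehicle was 0.72 ± 0.13 with methylparaben (95% interval 0.46 to 0.97) and 0.64 ± 0.13 with propylparaben (0.39 to 0.90).

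The vehicle tumors were also the most spread, with a coefficient of variation of 19.8% in methylparaben tumors, 25.3% in propylparaben tumors and 41.7% in vehicle tumors. Irs1 was the only 1 of the 8 genes called in either contrast at a limma adjusted p under 0.05. Such calls made up 1.32% of the 14487 genes tested for methylparaben and 0.0276% for propylparaben, and nothing is read from this because Irs1 was chosen on it. The gene Gm9747 lies on the opposite strand within 2822 exon bases of Irs1, at a mean of 0.0927 normalized counts. The strand setting of the counting is not given in the sources used here, so reads of the pair cannot be told apart.

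Irs2, the second adaptor, on chromosome 8 (10984681 to 11008458, minus strand), ranged from 38.5 to 213 with a median of 75.5 normalized counts in methylparaben tumors. It ranged from 47.6 to 166 with a median of 76.1 in propylparaben tumors and from 40.1 to 98.2 with a median of 69.6 in vehicle tumors. The groups overlapped apart from 3 methylparaben and 3 propylparaben tumors above the highest vehicle tumor and 1 methylparaben tumor below the lowest. The log2 differences from vehicle were 0.22 ± 0.13 and 0.16 ± 0.13. The highest Irs2 value was in methylparaben replicate 5, and without that library the methylparaben difference was 0.15. Without propylparaben replicate 12, the highest of its group, the propylparaben difference was 0.10. On the opposite strand, 9530052E02Rik shares 162 exon bases with Irs2 and had a mean of 0.224 normalized counts.

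**Figure D1:**
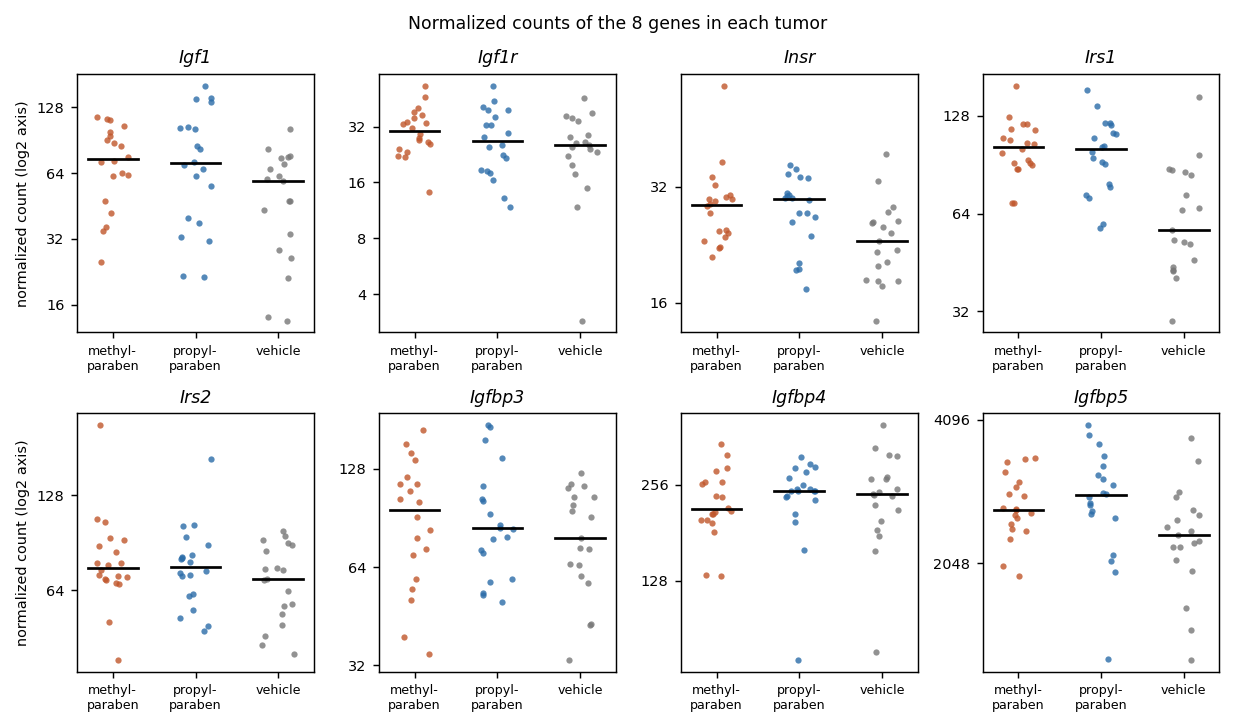
Normalized counts (log2 axis) of the 8 genes, with 1 point per tumor and a bar at the median, in 20 methylparaben, 20 propylparaben and 19 vehicle tumors. All 40 Irs1 points of the ester groups lie above the vehicle median of 56.97, while the 3 groups overlap in every panel.

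Among the binding proteins, Igfbp3 carries most of the IGF-I in blood. It ranged from 34.8 to 168 with a median of 95.9 normalized counts in methylparaben tumors, from 50.04 to 174 with a median of 84.1 in propylparaben tumors, and from 33.2 to 124 with a median of 78.3 in vehicle tumors. The groups overlapped, and the log2 differences were 0.18 ± 0.18 and 0.19 ± 0.18. It lies on chromosome 11 from 7206086 to 7213923 on the minus strand.

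Igfbp4, mostly an inhibitor of IGF action, lies on the plus strand of the same chromosome, from 99041244 to 99054392. It ranged from 132 to 344 with a median of 214 normalized counts in methylparaben tumors, from 72.3 to 313 with a median of 245 in propylparaben tumors, and from 76.5 to 393 with a median of 240 in vehicle tumors. No ester tumor was above the highest vehicle tumor, and the log2 differences were −0.05 ± 0.14 and 0.01 ± 0.14. Propylparaben replicate 12 and vehicle replicate 13 lay far below the others.

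Igfbp5, which in the mammary gland is known for its rise during involution, lies on chromosome 1 from 72857932 to 72874884 on the minus strand. It ranged from 1922 to 3398 with a median of 2653 normalized counts in methylparaben tumors, from 1289 to 3988 with a median of 2843 in propylparaben tumors, and from 1284 to 3744 with a median of 2352 in vehicle tumors. Above the vehicle median lay 17 of 20 methylparaben and 16 of 20 propylparaben tumors. The log2 differences were 0.22 ± 0.10 and 0.25 ± 0.10. The methylparaben and propylparaben differences of all 8 genes share the vehicle tumors, so their likeness is not evidence on its own.

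Intron reads, which in general come from unspliced RNA, gave another readout of the same libraries. Irs1 intron values averaged 254 ± 75.6 in methylparaben tumors, 244 ± 74.5 in propylparaben tumors and 163 ± 54.2 in vehicle tumors (SD, n = 20, 20 and 19), and 8 methylparaben and 9 propylparaben tumors exceeded the highest vehicle tumor. The log2 differences of Irs1 introns were 0.67 ± 0.14 and 0.60 ± 0.14, and the gene difference exceeded the intron difference by 0.05 ± 0.13 with each ester. So the Irs1 difference had about the same size in intron reads as in gene reads.

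The other genes divided in this respect. Igf1 introns differed by 0.68 ± 0.27 with methylparaben and 0.66 ± 0.27 with propylparaben, Insr introns by 0.24 ± 0.08 and 0.21 ± 0.08, and Igf1r introns by 0.17 ± 0.18 and 0.14 ± 0.18. Igfbp3 introns were on the other side of 0 from the gene reads, at −0.23 ± 0.27 and −0.28 ± 0.27, and Igfbp4 introns were at −0.41 ± 0.30 and −0.38 ± 0.30, from medians of 6 and 4 reads per library. Igfbp5 introns, at a median of 388 reads, differed by 0.11 ± 0.13 with methylparaben and 0.09 ± 0.13 with propylparaben. Its gene reads differed by 0.22 and 0.25. Irs2 introns differed by 0.17 ± 0.17 with each ester. Across tumors, with the group means removed, a gene's reads followed its own intron reads with Pearson r between 0.48 (Igfbp4) and 0.89 (Igfbp5), and r was 0.59 for Irs1 (Spearman 0.56, permutation test with 8 relations, adjusted p 2.667e-05 and 4.8e-05). For Irs1 this was 0.29 within methylparaben, 0.74 within propylparaben and 0.63 within vehicle tumors, and 0.55 without the 2 tumors farthest from the median.

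**Figure D2:**
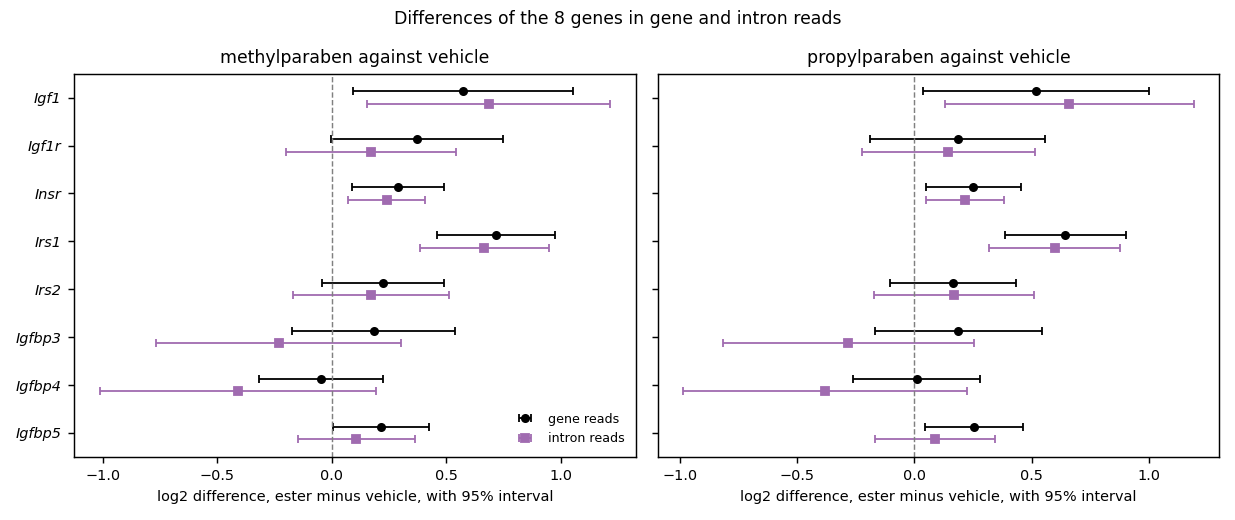
Log2 differences (ester minus vehicle, with 95% intervals) of the 8 genes in gene reads (black circles) and intron reads (purple squares), for methylparaben on the left and propylparaben on the right. Irs1 is at 0.72 and 0.64 in gene reads and at 0.67 and 0.60 in intron reads, while Igfbp3 and Igfbp4 introns lie left of 0 with wide intervals.

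Propylparaben was then compared directly with methylparaben. Of the 7 genes other than Irs1, 0 passed by limma on log2(value + 1), with an adjusted p of 1.00 for each, and 0 reached an unadjusted p under 0.05. Irs1 was chosen for being higher with both esters, which favours a small difference between them, so its values are given without a test. The Irs1 difference was −0.07 ± 0.13 with a 95% interval of −0.33 to 0.18, and that of its introns −0.07 ± 0.14 (−0.35 to 0.21). The interval was widest for Igf1 (−0.53 to 0.42) and Igf1r (−0.56 to 0.18), and narrowest for Insr (−0.24 to 0.16) and Igfbp5 (−0.17 to 0.24). Irs2, Igfbp3 and Igfbp4 differed by −0.06 ± 0.13, 0.00 ± 0.18 and 0.06 ± 0.13. These intervals leave room for differences of that size between the methyl and the propyl ester, whose doses the labels do not give. The esters were the only pair of compounds. Over all 14487 genes 0% was called in this contrast, with 114 genes higher and 197 lower at an unadjusted p under 0.05, and edgeR called 21 genes and DESeq2 0, none of them among the 8.

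The wider pathway was taken as 86 further genes in 6 lists, of which 77 passed the filter on low values. The lists were chosen with earlier results of these data known, so the counts against vehicle are not independent of those results. With methylparaben 3 of the 77 rose against vehicle and 1 fell by limma at an adjusted p under 0.05, against 1.32% of all genes. At an unadjusted p under 0.05 there were 16 (13 higher and 3 lower), which is 20.8% of the 77 beside 22.1% of all genes. Over all genes 1712 were higher and 1494 lower at that p. With propylparaben 0 of the 77 were called, against 0.0276% of all genes. An unadjusted p under 0.05 was found for 17 (14 higher and 3 lower), which is 22.1% of the 77 beside 18.4% of all genes. Over all genes 1292 were higher and 1375 lower with propylparaben at that p. In that contrast edgeR called 0 of the 77, with 31 calls over all genes. DESeq2 called 3 of the 77 (Grb10, Deptor and Bcl6), with 231 over all genes. The median log2 difference of the 77 was 0.07 with methylparaben and 0.05 with propylparaben, beside 0.01 and 0.00 over all genes. Above 0 were 55 of the 77 with methylparaben and 51 with propylparaben, beside 51.2% and 49.8% of all genes tested. In propylparaben against methylparaben tumors 0 were called by limma, edgeR or DESeq2, 1 (Hras) had an unadjusted p under 0.05, and the median was −0.01. The 2 smallest p-values of each list in that contrast belonged to Igfbp2 and Stc1, Sh2b2 and Ptpn11, Pik3r2 and Inpp5k, Rptor and Rps6kb2, Hras and Map2k2, and Klf15 and Ccng2, with log2 differences between −0.34 (Klf15) and 0.27 (Igfbp2) and an adjusted p of 1.00 each by limma.

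Grb10, an adaptor that binds the insulin and IGF-I receptors and restrains their signal, was the called gene of the list of 15 tested receptors and adaptors. It ranged from 15.3 to 71.7 with a median of 39.97 normalized counts in methylparaben tumors and from 8.22 to 53.95 with a median of 22.3 in vehicle tumors, and 19 of 20 methylparaben tumors were above the vehicle median. It rose by 0.69 ± 0.18 on the log2 scale (limma, adjusted p 0.0400). In propylparaben tumors it ranged from 16.1 to 61.9 with a median of 41.7, and its difference of 0.68 ± 0.18 did not pass (adjusted p 0.0662). Igf2r, whose product clears IGF-II, differed by 0.28 ± 0.10 with propylparaben and did not pass (adjusted p 0.124).

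Of the 11 genes of PI3 kinase and the lipid phosphatases, Pik3r1 and Pik3r3, both regulatory subunits of PI3 kinase that bind phosphorylated IRS proteins, moved in opposite directions with methylparaben. Pik3r1 ranged from 442 to 948 with a median of 733 normalized counts in methylparaben tumors and from 268 to 858 with a median of 606 in vehicle tumors, and rose by 0.47 ± 0.12 (limma, adjusted p 0.0404). Pik3r3 ranged from 11.3 to 43.1 with a median of 23.7 in methylparaben tumors and from 23.0 to 83.6 with a median of 37.5 in vehicle tumors, and fell by 0.71 on the log2 scale (SE 0.19, adjusted p 0.0460). Below the vehicle median of Pik3r3 lay 17 of 20 methylparaben tumors. With propylparaben their differences were 0.39 ± 0.12 and −0.67 ± 0.19, and neither passed (adjusted p 0.0992 and 0.0774).

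Of the 14 tested FOXO factors and targets, Bcl6, a transcriptional repressor and a target of FOXO factors, rose with methylparaben by 0.35 ± 0.09 (limma, adjusted p 0.0488). It ranged from 49.2 to 85.1 with a median of 66.5 normalized counts in methylparaben tumors and from 25.5 to 78.3 with a median of 58.3 in vehicle tumors. In propylparaben tumors it ranged from 54.4 to 92.3 with a median of 69.8, a difference of 0.42 ± 0.09 that did not pass (adjusted p 0.0610). Txnip, which restrains glucose uptake, differed by 0.54 ± 0.16 and 0.50 ± 0.16 and did not pass (adjusted p 0.0600 and 0.103).

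The remaining 3 lists held no called gene in any contrast. Among the 18 genes of the AKT and mTOR branch the smallest p-values were those of Deptor, an mTOR inhibitor, at 0.33 ± 0.11 with methylparaben (adjusted p 0.0754) and 0.40 ± 0.11 with propylparaben (adjusted p 0.0688), and of Rps6kb2, an S6 kinase, at −0.38 ± 0.15 (adjusted p 0.114) and −0.20 ± 0.15 (adjusted p 0.468). Of 12 genes of the RAS and ERK branch, Spred2, an inhibitor of the branch, differed by 0.17 ± 0.09 with methylparaben (adjusted p 0.276) and 0.20 ± 0.09 with propylparaben (adjusted p 0.232). Mapk3, which encodes ERK1, differed by 0.10 ± 0.06 with methylparaben (adjusted p 0.363), and Map2k2, which encodes the kinase MEK2, by −0.18 ± 0.07 with propylparaben (adjusted p 0.151).

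Of the list of 12 further ligands and binding proteins, 7 were tested. Stc2, an inhibitor of the protease that frees IGFs from their binding proteins, ranged from 8.25 to 49.7 normalized counts with a median of 24.2 in methylparaben tumors, from 4.61 to 54.8 with a median of 23.9 in propylparaben tumors, and from 0.822 to 78.3 with a median of 11.7 in vehicle tumors. Its differences of 0.89 ± 0.29 and 0.83 ± 0.29 did not pass (limma, adjusted p 0.0754 and 0.124), and neither did those of Igfbp7, 0.36 ± 0.14 and 0.29 ± 0.14 (adjusted p 0.125 and 0.259). Ins1, Ins2, Igfbp1 and Igf2 were at 0 reads in all 59 libraries, which allows 3 reads or 0.969 to 1.99 normalized counts per library, for counting error only. In GENCODE M21, Igf2 shares 62.8% of its exon bases with Gm49394 on the same strand, also at 0 in every library, and which annotation the counting used is not stated in the sources.

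The 4 methylparaben calls changed when single libraries were left out or marker scores entered the fit. Leaving out 1 of the 59 libraries at a time gave 0 to 7 calls in the pathway, with 0 without methylparaben replicate 5 and 7 without vehicle replicate 5. With the mitosis score as a covariate, or with 5 scores for adipocytes, fibroblasts, muscle, macrophages and T cells, no gene of the table was called in any of the 3 contrasts.

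The tumors were whole pieces, in which fewer cells of a type and less RNA per cell cannot be told apart. Every marker had a mean of at least 1 in 8 of the 10 lists, against 6 of 10 T cell markers, with Cd3e at a mean of 0.937, and 9 of 12 genes of the steroid receptor list, with 1 at 0. Fibroblast markers (12 of 12 at a mean of at least 1) summed to 1351 to 4740 normalized counts in methylparaben tumors, 894 to 5621 in propylparaben tumors and 425 to 4904 in vehicle tumors. Mitosis genes (18 of 18) summed to 414 to 1401 in methylparaben tumors, 463 to 1770 in propylparaben tumors and 495 to 1907 in vehicle tumors. Luminal epithelial markers (10 of 10) summed to 1871 to 2833 in methylparaben tumors, 1789 to 3024 in propylparaben tumors and 1571 to 2749 in vehicle tumors. The mean scores were 6.14, 6.13 and 5.65 for fibroblasts, 4.88, 4.96 and 5.35 for mitosis, and 7.31, 7.30 and 7.07 for luminal epithelium in methylparaben, propylparaben and vehicle tumors. Adipocyte markers (12 of 12) summed to 128 to 11944 in methylparaben tumors, 125 to 3208 in propylparaben tumors and 87.1 to 686 in vehicle tumors, and skeletal muscle markers (10 of 10) to 1.86 to 8553, 1.92 to 818 and 3.85 to 938 in methylparaben, propylparaben and vehicle tumors. The mean adipocyte scores were 4.43, 4.12 and 3.38, the mean skeletal muscle scores 3.52, 3.05 and 2.30, and the mean basal scores 5.47, 5.29 and 4.99 in methylparaben, propylparaben and vehicle tumors. The macrophage, endothelial and steroid receptor scores were also higher on average with both esters, at 4.99, 5.02 and 4.79, at 3.45, 3.39 and 3.18, and at 4.35, 4.32 and 3.87 in methylparaben, propylparaben and vehicle tumors. So apart from mitosis, whose score was lower with both esters, and T cells (1.36, 1.36 and 1.31 in methylparaben, propylparaben and vehicle tumors), mean scores were higher with both esters as Irs1 and Igf1 were, and the part of cell makeup in those differences was not tested.

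Such scores were also placed in the fit as covariates. The 5 tissue scores include the fibroblast score, which Igf1 followed most closely across tumors (r 0.93, group means removed). They leave out the luminal epithelial and steroid receptor scores, which Irs1 followed with r 0.65 and 0.63, beside 0.63 for the fibroblast score. So this fit does not treat the ligand and the adaptor alike. With the 5 tissue scores as covariates the Igf1 difference was −0.01 ± 0.08 with methylparaben and −0.02 ± 0.08 with propylparaben, where it had been 0.57 and 0.52. The Irs1 difference was 0.51 ± 0.11 and 0.46 ± 0.11 in the same fit, and 0.43 ± 0.10 and 0.41 ± 0.10 with the mitosis score. Insr was at 0.13 ± 0.09 with methylparaben and 0.14 ± 0.09 with propylparaben under the tissue scores, and at 0.10 with each ester under the mitosis score. Igf1r was at 0.16 ± 0.16 with methylparaben and −0.06 ± 0.15 with propylparaben under the tissue scores, and at 0.07 and −0.06 under the mitosis score.

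The first principal component held 19.1% of the variance, and 7 libraries had its lowest scores: propylparaben replicate 1 and vehicle replicates 7, 8, 10, 13, 14 and 19. Their Irs1 values ran from 29.99 to 57.8 normalized counts and their mitosis scores from 5.63 to 6.24, all above the vehicle mean of 5.35. Without these 7 libraries the Irs1 difference was 0.49 ± 0.13 with methylparaben and 0.46 ± 0.13 with propylparaben, the Igf1 difference 0.12 ± 0.22 and 0.15 ± 0.23, and the Irs2 difference 0.30 and 0.27. Irs1 introns then differed by 0.42 ± 0.14 and 0.39 ± 0.14.

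**Figure D3:**
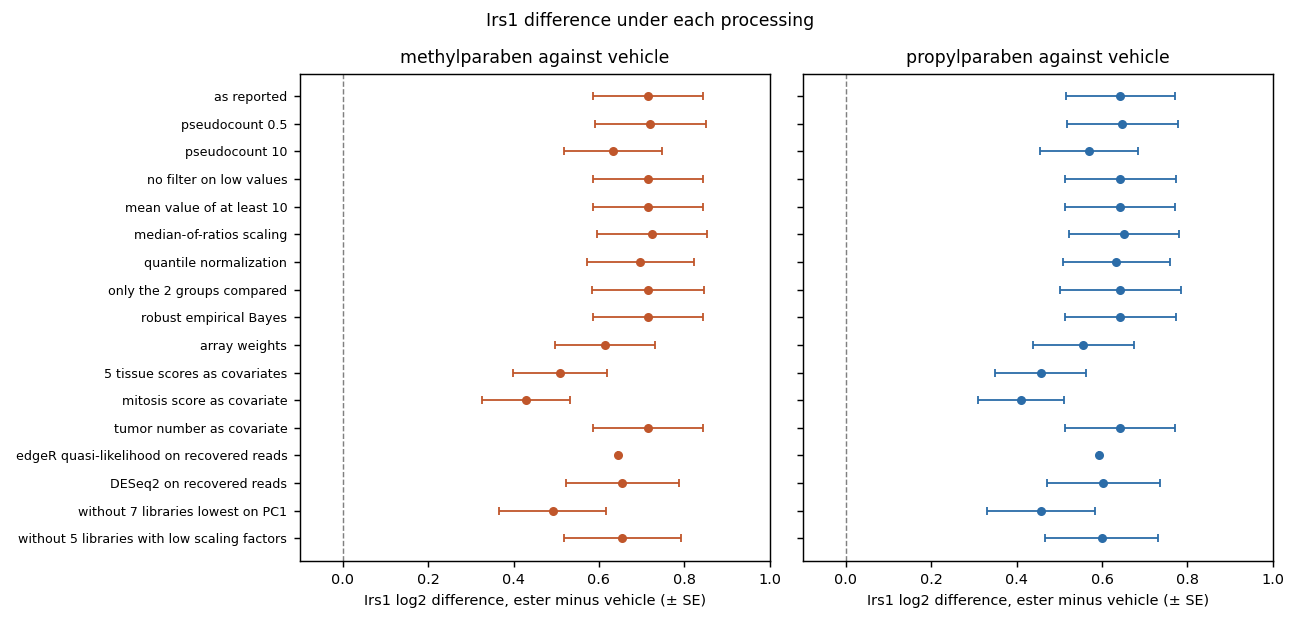
Log2 difference of Irs1 (ester minus vehicle, ± SE, none for edgeR) under each processing tried, for methylparaben on the left and propylparaben on the right. All values are above 0, and the smallest, 0.43 and 0.41, belong to the fit with the mitosis score.

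Within treatments, after the group means were removed, 5 of the 7 other genes followed Irs1 across the 59 tumors. The test was by permutation within groups (100000 resamples, 28 pairs of genes, Benjamini-Hochberg adjusted). Many other genes followed Irs1 as closely. By r with Irs1 among 9142 genes, these 5 ranked 244 (Igf1), 367 (Igfbp5), 413 (Insr), 861 (Igf1r) and 1698 (Irs2). So nothing particular to the pathway is read from that count. Of the 7, Igf1 followed Irs1 most closely, with Pearson r 0.60 and Spearman rho 0.62. The raw permutation p was 1e-05 for both, the smallest the permutations can give (adjusted p 7e-05 and 0.00028). For this pair r was 0.57 without the 2 tumors farthest from the median, and 0.22, 0.70 and 0.71 within methylparaben, propylparaben and vehicle tumors. So the relation held within propylparaben and vehicle tumors and did not pass within methylparaben tumors.

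Igfbp5 followed Irs1 with r 0.57 and rho 0.50 (permutation p 2e-05 and 0.00017, adjusted 9.333e-05 and 0.00119), with 0.56 without the 2 farthest tumors and 0.15, 0.49 and 0.79 within the methylparaben, propylparaben and vehicle groups. Insr followed it with r 0.56 and rho 0.43 (p 2e-05 and 0.00126, adjusted 9.333e-05 and 0.00441), with 0.52 without the 2 farthest and 0.44, 0.79 and 0.51 within methylparaben, propylparaben and vehicle tumors. Igf1r had r 0.47 and rho 0.33 (p 0.00094 and 0.01315, adjusted 0.002632 and 0.03145), with 0.36 without the 2 farthest. Within methylparaben tumors its r with Irs1 was −0.055, against 0.70 within propylparaben and 0.50 within vehicle tumors.

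The paralog Irs2 was less closely tied, with r 0.33 and rho 0.33 (permutation p 0.00913 and 0.01348, adjusted 0.0213 and 0.03145), r 0.36 without the 2 farthest tumors, and r 0.65, 0.25 and 0.23 within the methylparaben, propylparaben and vehicle groups. Igfbp3 and Igfbp4 had r 0.15 and 0.14 and rho 0.18 and 0.06 with Irs1 (p 0.2512 and 0.3387 for r, 0.1636 and 0.6639 for rho, adjusted 0.3908 and 0.4315, 0.2412 and 0.7436).

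Other pairs held further structure. The receptors Igf1r and Insr varied together (r 0.58, rho 0.54, adjusted permutation p 7e-05 and 0.0003733, r 0.49 without the 2 farthest tumors), with 0.50, 0.59 and 0.65 within methylparaben, propylparaben and vehicle tumors. The ligand and its receptor, Igf1 and Igf1r, had r 0.62 and rho 0.56 (adjusted permutation p 7e-05 and 0.0003733, 0.53 without the 2 farthest), with 0.30, 0.87 and 0.57 within methylparaben, propylparaben and vehicle tumors. Igfbp3 and Igfbp5 had r 0.48 and rho 0.44 (adjusted permutation p 0.00036 and 0.00312, 0.49 without the 2 farthest), with 0.48, 0.61 and 0.40 within methylparaben, propylparaben and vehicle tumors. Igfbp4 and Igfbp5 had r 0.53 (adjusted permutation p 0.0007467) and rho 0.24, which did not pass (adjusted p 0.1363). Their r was 0.21 without the 2 farthest tumors, and 0.60, 0.61 and 0.43 within methylparaben, propylparaben and vehicle tumors.

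**Figure D4:**
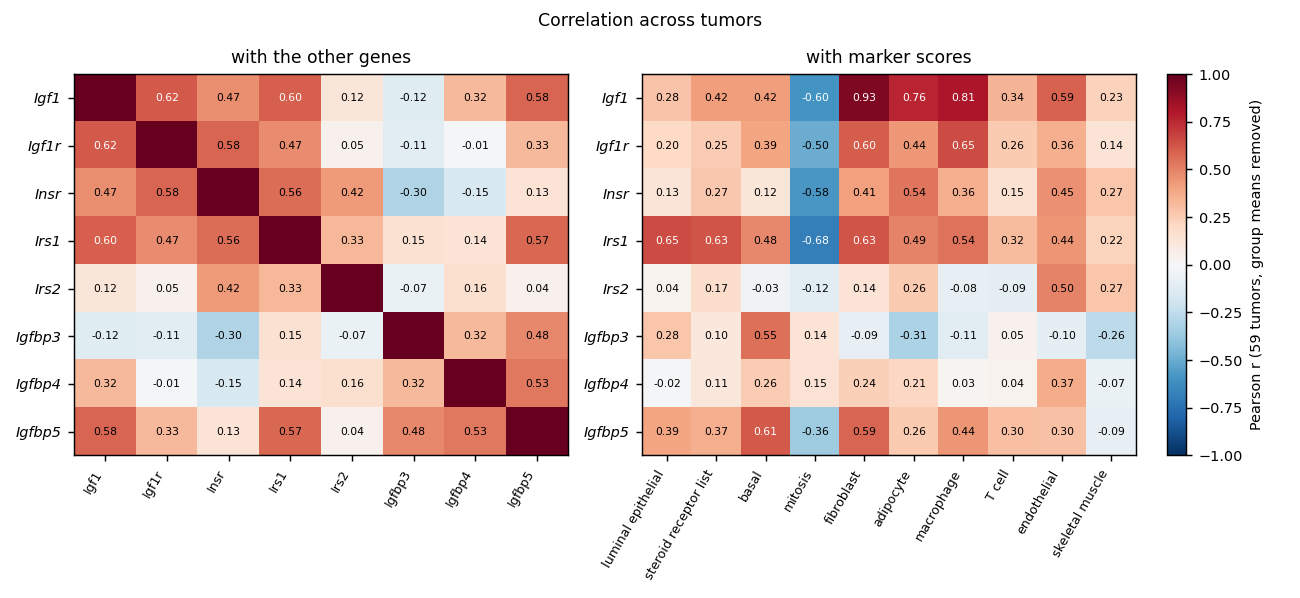
Pearson correlation across 59 tumors after removal of group means, among the 8 genes (left) and between them and 10 marker scores (right), red for positive and blue for negative. Igf1 stands out with the fibroblast score at 0.93, and Irs1 with the mitosis score at −0.68.

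The 80 relations of the 8 genes with 10 marker scores were tested in the same way, and 39 had an adjusted p under 0.05. The share of all genes that would pass against these scores is not given here, so nothing particular to the 8 genes is read from that count. Igf1 followed the fibroblast score with r 0.93 and rho 0.92 (raw permutation p 1e-05, the smallest they can give, adjusted p 5e-05 and 8e-05), r 0.92 without the 2 farthest tumors, and 0.86, 0.96 and 0.96 within methylparaben, propylparaben and vehicle tumors. Its r with the macrophage score was 0.81 and with the adipocyte score 0.76. Fibroblasts are a known source of IGF-I in the mammary gland.

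Irs1 had its strongest relation with the mitosis score, which was negative: r −0.68 and rho −0.65 (raw permutation p 1e-05, adjusted p 5e-05 and 8e-05), −0.64 without the 2 farthest tumors, and −0.52, −0.68 and −0.76 within methylparaben, propylparaben and vehicle tumors. Without the 7 libraries named above it was −0.54. Its relations with the luminal epithelial score (r 0.65), the list of steroid receptors and luminal hormone response (0.63) and the fibroblast score (0.63) had adjusted p 5e-05 each by the same permutation test. Within methylparaben tumors these 3 were 0.15, 0.36 and 0.28, against 0.86, 0.77 and 0.77 within vehicle tumors.

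Insr, like Irs1, had its strongest relation with the mitosis score, and was lower where that score was higher (r −0.58, rho −0.55, adjusted permutation p 5e-05 and 0.0002, −0.56 without the 2 farthest), and within methylparaben, propylparaben and vehicle tumors r was −0.58, −0.74 and −0.47. Igf1r followed the macrophage score (r 0.65, rho 0.50, adjusted permutation p 5e-05 and 0.00075, 0.48 without the 2 farthest), with 0.23, 0.73 and 0.75 within methylparaben, propylparaben and vehicle tumors. It followed the fibroblast score about as closely (r 0.60, rho 0.50, adjusted permutation p 5e-05 and 0.0007467, 0.59 without the 2 farthest). Within methylparaben, propylparaben and vehicle tumors that r was 0.21, 0.82 and 0.62. The r of Igf1r was −0.50 with the mitosis score and 0.44 with the adipocyte score. Irs2 followed the endothelial score (r 0.50, rho 0.41, adjusted permutation p 0.001704 and 0.005322, 0.30 without the 2 farthest), with 0.71, −0.004 and 0.72 within methylparaben, propylparaben and vehicle tumors, so this relation was not seen in propylparaben tumors.

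Igfbp3 and Igfbp5 both followed the basal epithelial score. For Igfbp3 r was 0.55 and rho 0.55 (adjusted permutation p 5e-05 and 8e-05, 0.54 without the 2 farthest), with 0.56, 0.64 and 0.45 within methylparaben, propylparaben and vehicle tumors. For Igfbp5 r was 0.61 and rho 0.53 (adjusted permutation p 5e-05 and 0.0002, 0.58 without the 2 farthest), with 0.31, 0.87 and 0.49 within methylparaben, propylparaben and vehicle tumors. Igfbp5 followed the fibroblast score nearly as closely (r 0.59, rho 0.49, adjusted permutation p 5e-05 and 0.0008, 0.49 without the 2 farthest). Within methylparaben, propylparaben and vehicle tumors that r was 0.29, 0.58 and 0.73. The r of Igfbp5 was 0.44 with the macrophage score and 0.39 with the luminal epithelial score. Igfbp4 was tied to the endothelial score alone among the 10 (r 0.37, rho 0.39, adjusted permutation p 0.007226 and 0.009233, 0.37 without the 2 farthest), with 0.51, 0.42 and 0.23 within methylparaben, propylparaben and vehicle tumors.

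**Figure D5:**
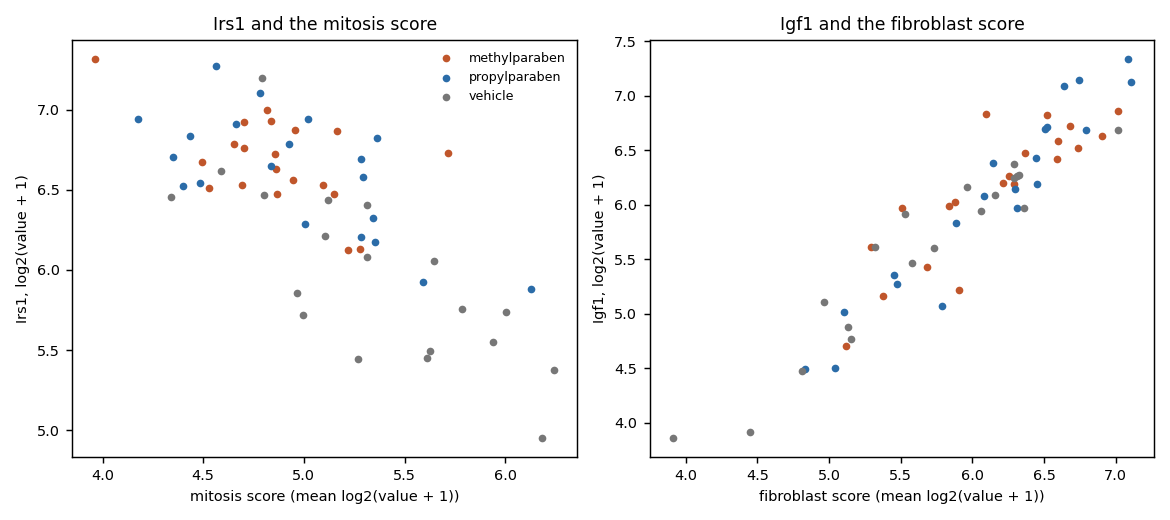
Irs1 against the mitosis score (left) and Igf1 against the fibroblast score (right), with 1 point per tumor, both axes in log2(value + 1), coloured by group (methylparaben, propylparaben, vehicle). Irs1 is lower at higher mitosis scores, with the lowest vehicle tumors at the right end, and Igf1 lies close to a line over all groups.

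The genes whose variation was most like that of Irs1 were ranked by Pearson r over the 59 tumors, with group means removed, among 9142 genes at a mean of at least 10. The first 5 were Zbtb4, a zinc finger repressor that binds methylated DNA (r 0.77), Txnip (0.75), Fibin (0.75), Col14a1, a fibril-associated collagen (0.75), and Gnaq, a G protein alpha subunit (0.75), where the 99th percentile of all genes was 0.66. Txnip kept 0.73 without the 7 libraries named above and had 0.62, 0.83 and 0.78 within methylparaben, propylparaben and vehicle tumors. Gnaq had 0.13 within methylparaben tumors and 0.90 within vehicle tumors. In this order Igf1 ranked 244, Igfbp5 367, Insr 413, Igf1r 861, Irs2 1698, Igfbp3 3148 and Igfbp4 3256.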

How the data were processed

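Per the submitters' processing notes, the tools were bcl2fastq 2.20.0.422, STAR 2.6.1d and HTSeq 0.10.0, with the build GRCm38. Not given in the sources used here are the annotation, the library kit, the strand setting, how introns were defined and what normalized the counts. The deposited values are a signal, the authors' normalized counts, in a table of 55421 genes with 5 HTSeq summary lines and a table of 33282 introns. Whole reads were recovered from 100% of the deposited values (tolerance 1e-06 reads), and the gene values equal CPM scaled by trimmed means of M values (TMM factors 0.782 to 1.09). That equality held only with the summary lines counted in, and with the genes alone the largest gap was 54% of a value. The summary lines held 27.7 to 47.9% of all reads. They were not tested as features, but they took part in the scaling of the deposited gene values. Of the columns 0 were left unused.

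The fit used limma 3.58.1 (trend, R 4.3.3) on log2(value + 1), with 1 mean per group over 59 libraries. Features were kept at a mean of 1 or more, and the gene minus intron gap was fitted at a mean of 10 or more in both tables. A call is a Benjamini-Hochberg adjusted p under 0.05 over all 14487 genes. On the recovered reads, as alternatives, edgeR 4.0.16 called 585, 31 and 21 genes and DESeq2 1.42.0 called 640, 231 and 0, for methylparaben against vehicle, propylparaben against vehicle and propylparaben against methylparaben. Correlations used 100000 permutations within groups. The limma fit was run on simulated data with changes set in the propylparaben group, and scored in propylparaben against methylparaben alone. Genes were drawn independently of one another there, so nothing about the contrasts with vehicle is read from that run. No pair of libraries of 1 group agreed within sampling noise (lowest chi-square per degree of freedom 2.47, 1.97 and 2.82 in the methylparaben, propylparaben and vehicle groups).

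The members and lists were chosen with earlier results of these data known. Named are the 8 members, up to 4 called genes per list (otherwise the 2 with the smallest p), the 5 genes most correlated with Irs1, and overlapping genes. Hras, Gm49394 and the genes at 0 were named after their values were seen. Gene positions are from GENCODE M21 on GRCm38, which held 55154 of the gene identifiers. Processing alternatives covered the pseudocount, the filter, scaling, weights, covariates, the tool and left-out libraries.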

Additional observations from a re-analysis of the deposited data

How the results depend on the processing

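Leaving out 1 of the 59 libraries at a time, the Irs1 difference ranged from 0.66 to 0.78 with methylparaben and from 0.59 to 0.71 with propylparaben, lowest without vehicle replicate 8 and highest without vehicle replicate 5. Over 16 other settings it ranged from 0.43 to 0.72 and from 0.41 to 0.65. The Igf1 difference ranged from −0.01 to 0.61 and from −0.02 to 0.57 over the same settings, and Igfbp4 lay on either side of 0. The 4 pathway calls with methylparaben became 0 with no filter on low values, with only the 2 groups compared, with array weights, with the tissue scores, with the mitosis score, without the 7 libraries with the lowest scores on principal component 1, and without 5 libraries with low scaling factors. Leaving out single libraries gave 0 to 7 calls with methylparaben and 0 to 7 with propylparaben, and 0 in propylparaben against methylparaben. Calls of Bcl6, Pik3r1, Pik3r3 and Grb10 passed in 25, 41, 36 and 39 of 59 such fits and in 8, 9, 9 and 9 of 16 settings, with the highest leave-one-out adjusted p at 0.101, 0.0921, 0.0972 and 0.0847 (limma), without vehicle replicate 8 for Bcl6 and Grb10 and without vehicle replicate 10 for the Pik3r genes. At least 1 of the 4 calls was lost without methylparaben replicate 2, 3, 5, 6, 7, 8, 10, 11, 12, 13, 14, 15, 16, 17 or 18, or without vehicle replicate 1, 2, 4, 7, 8, 10, 13, 14, 16, 18 or 19, and that of Bcl6 also without propylparaben replicate 2, 3, 5, 7, 8, 10, 11, 13 or 18. The propylparaben count of 0 became 1 (Bcl6) at a mean of at least 10 and 3 with DESeq2. Over all genes, the 191 methylparaben calls became 25 with no filter, 334 at a mean of at least 10, 39 with array weights, 2 with only the 2 groups compared, 5 without the 5 libraries, 585 with edgeR, 640 with DESeq2, 0 with either set of scores and 0 without the 7 libraries, and 1 to 932 without single libraries. The 4 propylparaben calls became 2, 16, 4, 0, 4, 31, 231, 0 and 0 under those settings, 8 with the tumor number and 1 to 424 without single libraries. The causes were not tested.

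Among the correlations with Irs1, Igf1r was at −0.055 within methylparaben tumors and did not pass within vehicle tumors (0.50) or without the 7 libraries (0.28). Irs2 did not pass in introns (0.20) or within propylparaben (0.25) and vehicle tumors (0.23), Insr within methylparaben (0.44) and vehicle tumors (0.51), Igf1 within methylparaben tumors (0.22), and Igfbp5 in introns (0.11) or within methylparaben (0.15) and propylparaben tumors (0.49). No paired analysis was possible because replicate numbers only follow the order of the records. Medians of 6 and 4 reads per library lie behind the intron values of Igfbp3 and Igfbp4, whose differences from vehicle tumors had SEs of 0.27 and 0.30.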
